A study of Bos taurus with 3 samples.

Results

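The cluster of miR-424, miR-503, miR-450a, miR-450b and miR-542 is a run of microRNA hairpins that lie close together on the X chromosome. Its mature miRNAs were described in small RNA from large dense-core vesicles, the organelles in which chromaffin cells of the adrenal medulla store catecholamines and peptides. Members were taken by name, as every mature miRNA of these hairpins in the count table, which gave 7 of 793 mature miRNAs on 6 hairpins. The cluster was selected on its lower counts in the biological replicate than in the technical pair, so the comparison between preparations is given as values, with no test.

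The vesicles were purified from bovine chromaffin cells (Bos taurus, from a local slaughter), and 3 libraries were made. In order of use here these are 1 library labelled a biological replicate and 2 libraries labelled technical replicates. All 3 carry the same tissue and cell type labels, adrenal gland medulla and chromaffin cell. The labels name no treatment, age, strain or breed, do not tell what was repeated in the technical pair, and give no number of animals. The pair is assumed here to be 1 preparation and stands for it by its mean, and any mean ± SD is over n = 2 preparations. With a single row for each mature miRNA, there were 6708654 counts in the biological replicate and 5546771 and 6251664 counts in technical replicates 1 and 2. Counts were scaled to these totals as CPM, the usual unit of count tables. A count of 0 was taken to allow up to 3 counts, which is 0.447 CPM in the biological replicate and 0.541 and 0.480 CPM in technical replicates 1 and 2. This limit is tighter than the upper end of the exact 95% interval at a count of 0, 0.550 CPM in the biological replicate. Intervals are exact 95% intervals (Clopper-Pearson, or conditional binomial for a ratio). They and the limits at 0 cover counting error only, since no molecular identifiers are named. The chromaffin label was checked against miR-375, an endocrine miRNA, which stood at 416586 CPM in the biological replicate and at 381396 and 358079 CPM in the technical replicates. No whole-cell library or other fraction was analysed here, so the values show neither enrichment over the cell nor a place inside the vesicles.

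A miRNA hairpin is cut into a duplex of 2 arms, 5p and 3p, of which usually one is kept in the silencing complex while the other is degraded. Hairpins that lie close together are often cut from a common primary transcript, and their miRNAs then tend to be made together. In human cells miR-424 and miR-503 belong to the wider miR-15/16 family through their shared seed, the stretch that pairs with target mRNAs, and they are known for restraining cell division by repressing cyclins and CDC25A. The rodent counterpart of miR-424 is named miR-322, and in mouse muscle cells it is induced with miR-503 as the cells leave the cell cycle. In the RefSeq annotation (assembly ARS-UCD2.0, used here only for names and order because the submitters' processing notes name UMD3.1) all 6 hairpins were found on the X chromosome. They stood in the order MIR450B, MIR450A-1, MIR450A-2, MIR542, MIR503 and MIR424, between HPRT1, which encodes a purine salvage enzyme, and PLAC1, a gene known from the placenta. MIR3601 was the only other gene listed among them, next to MIR542. Its miRNA, miR-3601, had no count in any library, and it was looked up after the values of the cluster had been seen.

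The cluster was a minor but readily counted part of the vesicle RNA, and it was lower in the biological replicate than in either technical replicate. Its 7 mature miRNAs together had 1618 counts in the biological replicate, against 3199 and 3507 counts in technical replicates 1 and 2. In CPM this was 241 in the biological replicate (interval 230 to 253), against 577 (557 to 597) and 561 (543 to 580) in the technical replicates. The cluster thus took 0.0241% of all miRNA counts in the biological replicate and 0.0577% and 0.0561% in the technical replicates, and 405 ± 232 CPM on average (SD, n = 2). The log2 ratio of the biological replicate over the mean of the technical pair was -1.24 (interval -1.32 to -1.16), a level 57.6% below that mean. Between technical replicates 2 and 1 the log2 ratio of the cluster was -0.04 (-0.11 to 0.03).

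**Figure D1:**
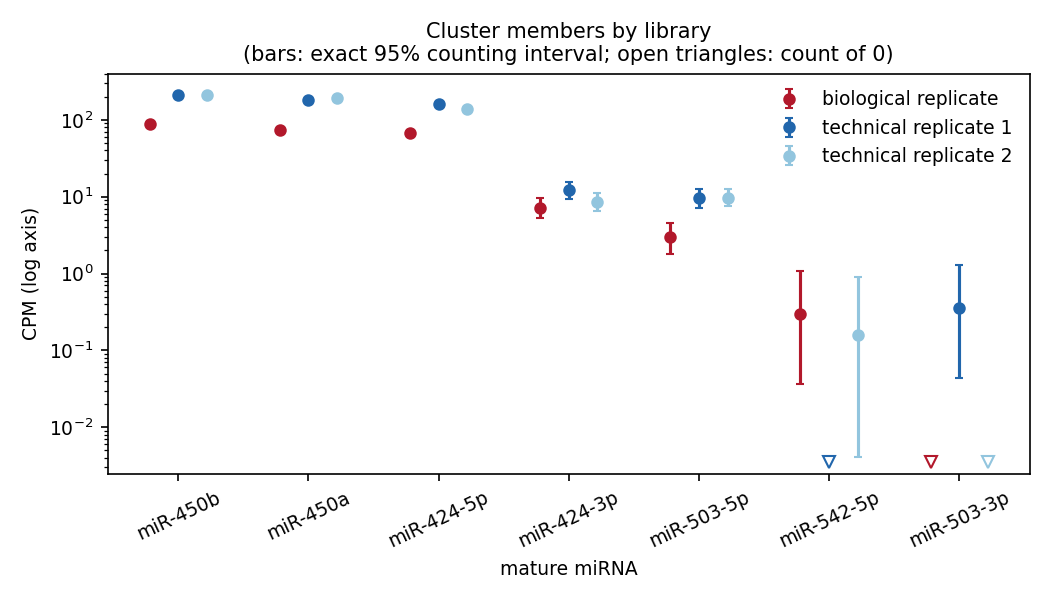
Level of each mature miRNA of the cluster in the biological replicate (red) and technical replicates 1 and 2 (dark and light blue), in CPM on a log axis, with exact 95% counting intervals and open triangles, set at the foot of the plot, for a count of 0. miR-450b, miR-450a and miR-424-5p lie between 68.3 and 213 CPM, miR-424-3p and miR-503-5p between 2.98 and 12.1 CPM, and miR-542-5p and miR-503-3p at 2 counts or fewer in every library.

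Almost all counts of the cluster came from the miR-450 hairpins and from the 5p arm of miR-424. miR-450b (MIMAT0024576) had 89.0 CPM in the biological replicate, compared with 213 CPM in each technical replicate (212.74 in both to 2 decimals). It was the leading member in every library, unless both miR-450a rows are summed, and averaged 151 ± 87.5 CPM (SD, n = 2), rank 144 of 793 mature miRNAs. miR-450a (MIMAT0003834) had 73.5 CPM in the biological replicate, compared with 179 and 192 CPM in technical replicates 1 and 2. It averaged 129 ± 79.1 CPM (SD, n = 2), rank 153. The biological replicate was thus the low one for both miR-450 miRNAs, with no overlap with the technical pair. Such a place below both technical replicates was common, held by 59.1% of the 367 miRNAs that reached 10 counts in some library. It does not by itself set the miR-450 miRNAs apart.

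miR-450a can be made from either of its 2 hairpins, and the table gave a row for each. The row of mir-450a-1 held 491 counts in the biological replicate and 989 and 1194 in technical replicates 1 and 2. The row of mir-450a-2 held 493, 994 and 1198 counts in the same libraries. The rows differed by 2, 5 and 4 counts, at most 0.503% of the larger row, so how many reads came from each hairpin could not be read from these counts. The row with more counts was used here, and with both rows summed miR-450a came before miR-450b in every library. It then took 46.7% of the cluster's counts in the biological replicate and 47.3% and 50.9% in technical replicates 1 and 2, against 28.3%, 28.2% and 28.3% for miR-450b.

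miR-424-5p (MIMAT0013593), the arm that carries the miR-15/16 type seed, had 458 counts in the biological replicate, against 903 and 863 counts in technical replicates 1 and 2. Its level was 68.3 CPM in the biological replicate, compared with 163 and 138 CPM in the technical replicates, with a mean of 109 ± 58.1 CPM (SD, n = 2) and rank 159. The opposite arm, miR-424-3p (MIMAT0015304), had 48 counts in the biological replicate, against 67 and 54 counts, or 7.15 CPM against 12.1 and 8.64 CPM. For this arm the biological replicate was also the lowest library, but its interval (5.28 to 9.49 CPM) overlapped those of technical replicate 1 (9.36 to 15.3) and technical replicate 2 (6.49 to 11.3).

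miR-503-5p (MIMAT0025557), the partner of miR-424 in cell cycle control, was scarce. It had 20 counts in the biological replicate, against 53 and 61 counts in technical replicates 1 and 2. This was 2.98 CPM in the biological replicate (1.82 to 4.60), against 9.56 CPM (7.16 to 12.5) and 9.76 CPM (7.46 to 12.5), so the biological replicate lay below both with separate intervals. The other arm, miR-503-3p (MIMAT0025558), had 0 counts in the biological replicate, 2 counts in technical replicate 1 and 0 in technical replicate 2. miR-542-5p (MIMAT0013594) had 2 counts in the biological replicate and 0 and 1 counts in technical replicates 1 and 2. Both were at or under the limit that a count of 0 allows in every library, so no difference was detectable for them at this depth. miR-542-3p, the arm known in human cells for repressing the survival gene BIRC5 (survivin), had no row in the count table. The values of miR-542 given here are thus those of its 5p arm only.

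With the larger miR-450a row, the order of the members was the same at the top in every library, miR-450b before miR-450a before miR-424-5p, but not every step in it was larger than counting error. In the biological replicate the interval of miR-450b (82.0 to 96.4 CPM) stood apart from that of miR-450a (67.1 to 80.3), which overlapped that of miR-424-5p (62.2 to 74.8). In technical replicate 1 the intervals of miR-450a (168 to 191) and miR-424-5p (152 to 174) overlapped, and miR-450b (201 to 225) stood apart. In technical replicate 2 miR-450b (201 to 224) and miR-450a (181 to 203) overlapped, and miR-424-5p (129 to 148) stood apart. Overlap alone does not settle a step, so counts were also set directly against each other. Counts of miR-424-5p per count of miR-450a were 0.929 (0.816 to 1.06) in the biological replicate and 0.908 (0.829 to 0.995) in technical replicate 1. Counts of miR-450a per count of miR-450b were 0.901 (0.832 to 0.975) in technical replicate 2. Among these 3 members, only the step from miR-450a to miR-424-5p in the biological replicate was within counting error. Below them, miR-424-3p was above miR-503-5p in the biological replicate and in technical replicate 1, and below it in technical replicate 2. The intervals of these 2 miRNAs overlapped within each technical replicate and were separate in the biological one (5.28 to 9.49 against 1.82 to 4.60 CPM). These are levels of read counts, and no calibration of one miRNA against another was available.

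Set against the technical pair, all 5 members with at least 10 counts in a library were below both technical replicates in the biological one, and 4 of these 5 were lower by more than 2-fold. The other 2 members did not pass this count minimum. Of the 367 miRNAs that passed it, 59.1% were below both technical replicates and 24.5% above both, while 8.99% were more than 2-fold lower and 1.36% more than 2-fold higher. Since the cluster was chosen with this contrast known, nothing is read from the difference between those shares. miR-503-5p had a log2 ratio of -1.70 (interval -2.46 to -1.003), the widest interval of the 4. miR-450a followed with -1.34 (-1.48 to -1.20) and miR-450b with -1.26 (-1.39 to -1.13). miR-424-5p had -1.14 (-1.28 to -0.98). The fifth, miR-424-3p, had -0.53 (-1.03 to -0.03). The intervals of all 4 members past 2-fold overlapped one another. Overlap alone does not show that the ratios were alike, and they were not compared directly. The interval of miR-424-3p overlapped those of miR-424-5p and of miR-503-5p, but lay above those of miR-450a and miR-450b.

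**Figure D2:**
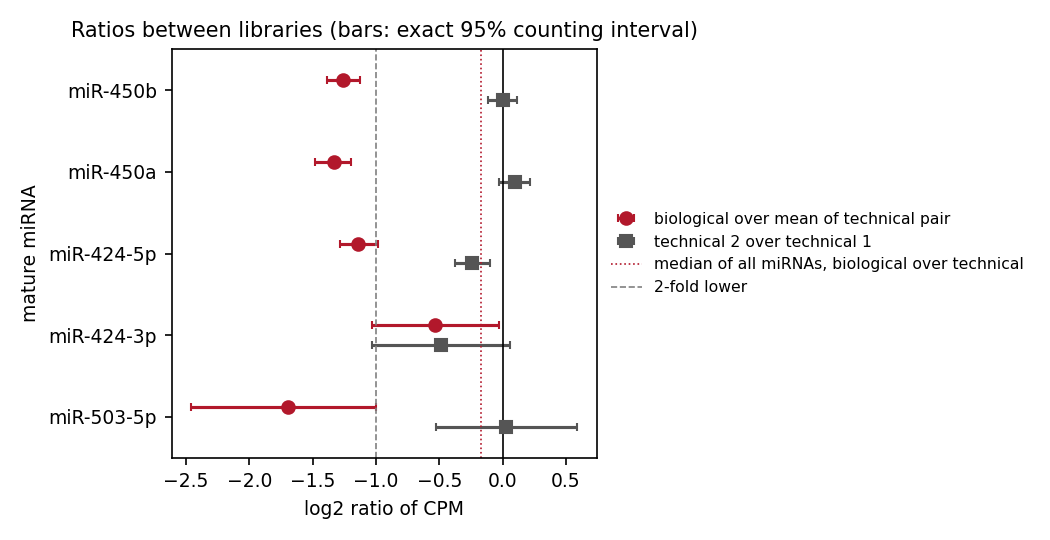
log2 ratio of CPM for the 5 members with at least 10 counts in a library, with exact 95% counting intervals: the biological replicate over the mean of the technical pair (red circles; the interval pools the counts of the pair) and technical replicate 2 over 1 (grey squares). The red circles lie between -1.70 and -0.53 and the grey squares between -0.48 and 0.10, with the dotted line at the median of all 367 miRNAs, -0.17, and the dashed line at a 2-fold lower level.

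CPM are shares of a library total, and the median ratio over all miRNAs was somewhat below 0. The median log2 ratio of the biological replicate over the technical pair was -1.26 over the 5 members and -0.17 over all 367 miRNAs. With miR-375 left out of the library totals, these medians were -1.15 and -0.06. TMM scaling, which sets aside miRNAs with extreme ratios before libraries are compared, moved the biological replicate up by 0.18 on the log2 scale and brought the median of all miRNAs to 0.01. On that scale the ratio of the cluster was -1.06. miR-424-5p then had -0.96 and was no longer past 2-fold, while miR-503-5p (-1.51), miR-450a (-1.15) and miR-450b (-1.08) still were. The share of all miRNAs past 2-fold on that scale was not counted. miR-424-3p had -0.36. In the order of the 366 miRNAs with a ratio, from the lowest, miR-503-5p ranked 5, miR-450a 17, miR-450b 20, miR-424-5p 27 and miR-424-3p 88, given as a description.

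**Figure D3:**
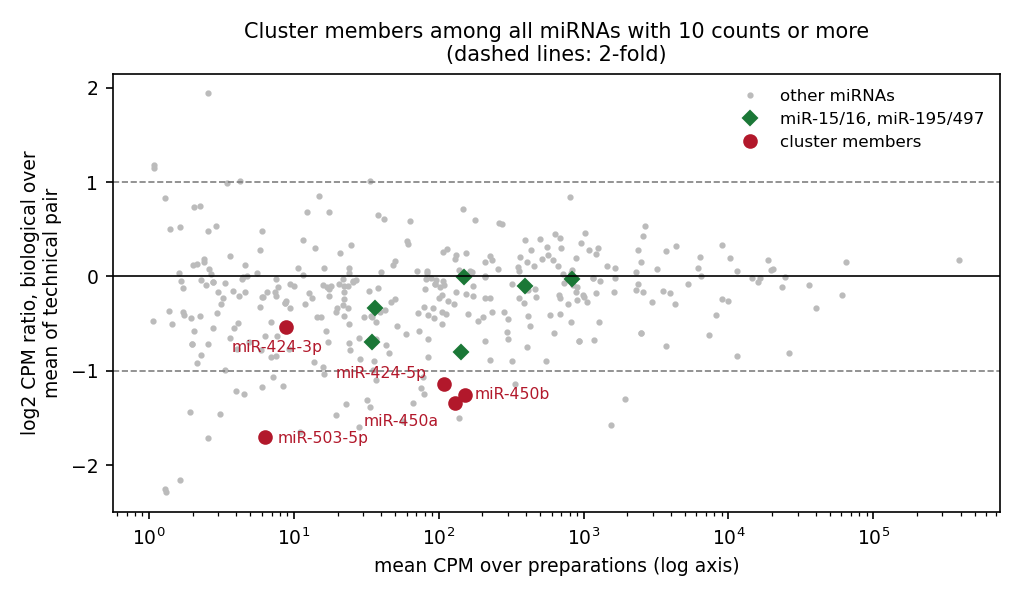
log2 ratio of CPM in the biological replicate over the mean of the technical pair, against mean CPM over the preparations (log axis), for the 366 of 367 miRNAs with a ratio (1 had no count in the biological replicate). The cluster members (red) lie between -1.70 and -0.53, the other miR-15/16 type miRNAs (green) between -0.80 and 0.00, and dashed lines mark 2-fold.

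Within the cluster, the shares of the 3 leading members in the biological replicate lay within counting error of those in technical replicate 1, although its level was lower. miR-450b took 36.9% of the cluster's counts in the biological replicate and 36.9% and 37.9% in technical replicates 1 and 2. miR-450a took 30.5% in the biological replicate (interval 28.2 to 32.8%), against 31.1% (29.5 to 32.7%) and 34.2% (32.6 to 35.8%). miR-424-5p took 28.3% (26.1 to 30.6%), against 28.2% (26.7 to 29.8%) and 24.6% (23.2 to 26.1%). The share of miR-424-5p thus differed between the technical replicates by more than counting error, and the biological replicate lay with technical replicate 1. miR-503-5p took 1.24% (0.757 to 1.90%) in the biological replicate, against 1.66% (1.24 to 2.16%) and 1.74% (1.33 to 2.23%), with overlapping intervals. miR-424-3p went the other way, at 2.97% (2.20 to 3.91%) in the biological replicate, against 2.09% (1.63 to 2.65%) and 1.54% (1.16 to 2.004%). Its interval in the biological replicate overlapped that of technical replicate 1 and was separate from that of technical replicate 2.

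The shift of miR-424-5p inside the technical pair was seen in its own level too. Its log2 ratio of technical replicate 2 over 1 was -0.24 (-0.37 to -0.10), whereas miR-450a had 0.10 (-0.03 to 0.22) and miR-450b had 0.00 (-0.11 to 0.11). miR-424-3p and miR-503-5p had -0.48 (-1.03 to 0.06) and 0.03 (-0.52 to 0.59), intervals too wide to place them. Counts of miR-424-5p per count of miR-450a were 0.929 in the biological replicate (0.816 to 1.06), against 0.908 (0.829 to 0.995) in technical replicate 1 and 0.720 (0.659 to 0.787) in technical replicate 2. Taken by position on the chromosome, the miR-424 and miR-503 hairpins together had 78.4 CPM in the biological replicate, compared with 185 and 156 CPM in technical replicates 1 and 2. The miR-450 and miR-542 hairpins together had 163 CPM in the biological replicate, compared with 392 and 405 CPM. Their log2 ratios of the biological replicate over the technical pair were -1.12 (-1.26 to -0.98) for miR-424 and miR-503 and -1.29 (-1.39 to -1.20) for miR-450 and miR-542, with overlapping intervals. Among all 367 miRNAs the median absolute log2 ratio between the technical replicates was 0.12, and 2.18% were more than 2-fold apart.

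**Figure D4:**
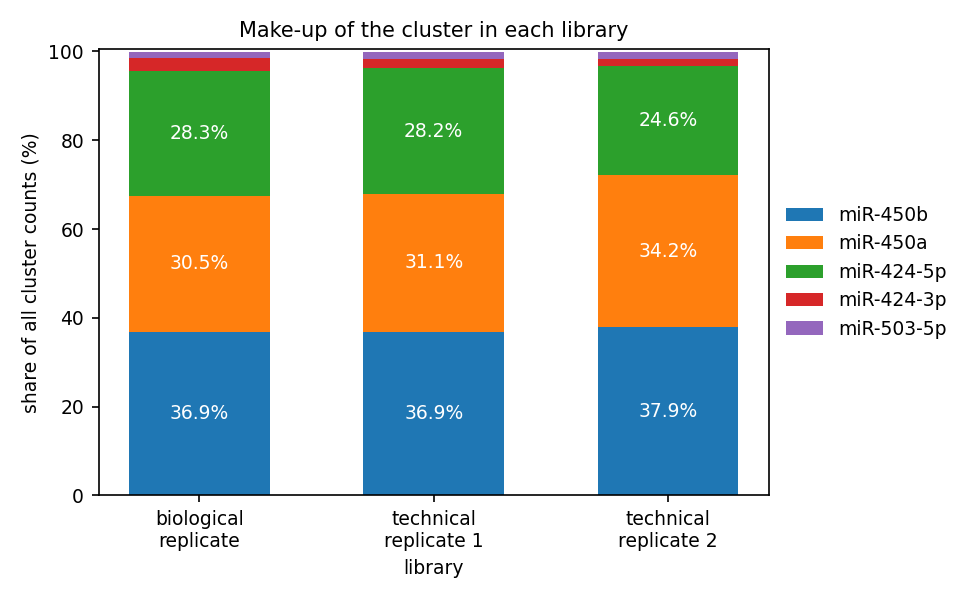
Share of each member in all counts of the cluster (%), for the biological replicate and technical replicates 1 and 2, as stacked bars that each come to nearly 100% (miR-503-3p and miR-542-5p, at 0.124% or less, are not drawn). miR-424-5p takes 28.3% in the biological replicate and 28.2% and 24.6% in technical replicates 1 and 2.

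The 5p arm prevailed on the miR-424 hairpin in every library. miR-424-3p made up 9.49% of the hairpin's counts in the biological replicate (48 of 506 counts, interval 7.08 to 12.4%), against 6.91% (67 of 970, 5.39 to 8.69%) and 5.89% (54 of 917, 4.45 to 7.61%) in technical replicates 1 and 2. The share was highest in the biological replicate, but its interval overlapped both others. On the miR-503 hairpin the 3p arm held 0 of 20 counts in the biological replicate, an interval that reaches up to 16.8%. It held 2 of 55 and 0 of 61 counts in technical replicates 1 and 2.

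The other miRNAs known to share the miR-15/16 type seed were set beside the cluster, as a list taken by name (miR-15a, miR-15b, miR-16a, miR-16b, miR-195 and miR-497). None of the 6 was more than 2-fold lower or higher, where 8.99% of all 367 miRNAs were lower and 1.36% higher by that much. Their median log2 ratio was -0.21, against -0.17 over all miRNAs. miR-16a, the most abundant, had 818 CPM in the biological replicate, compared with 828 and 837 CPM in technical replicates 1 and 2. miR-16b had 381 CPM, against 393 and 423 CPM, and miR-15b had 149 CPM, against 153 and 145 CPM. Their log2 ratios were -0.02, -0.10 and 0.00. miR-195 and miR-497, which are encoded together in mammals, had lower ratios. miR-195 had 105 CPM in the biological replicate, compared with 189 and 175 CPM, and miR-497 had 26.4 CPM, against 38.0 and 47.5 CPM. Their log2 ratios were -0.80 and -0.70, and that of miR-15a was -0.33. For 5 of the 6 the biological replicate was below both technical replicates, as it was for 59.1% of all 367 miRNAs. miR-424-5p, at 68.3 CPM in the biological replicate and 163 and 138 CPM in the technical replicates, was thus below miR-195 in each library.

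Other miRNAs of the X chromosome were also listed, from hairpins that RefSeq places there and nowhere else. Of these 48 miRNAs 32 passed the count minimum, with a median log2 ratio of -0.22, and 3 were more than 2-fold lower and 0 more than 2-fold higher. Among all 367 miRNAs 8.99% were more than 2-fold lower and 1.36% more than 2-fold higher, so nothing particular to the X chromosome is read from these counts. The 3 were miR-2484, miR-188 and miR-362-3p, at -1.71, -1.24 and -1.17, each at no more than 52 counts in any library. They are named as the 3 counted, after their values were seen. The most abundant miRNA of the X chromosome list, miR-504, had 19859 CPM in the biological replicate, compared with 16484 and 18601 CPM in technical replicates 1 and 2. The next, miR-374b, had 1529 CPM in the biological replicate, compared with 1552 and 1885 CPM. The biological replicate was thus the highest library for miR-504 and the lowest for miR-374b.

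Among the 164 other miRNAs that averaged 100 CPM or more, the 5 nearest to the cluster were found from 2 log2 ratios, that of the biological replicate over the technical pair and that of technical replicate 2 over 1. Nearest was miR-215, at a Euclidean distance of 0.10 log2 units, with 209 CPM in the biological replicate, compared with 463 and 455 CPM in technical replicates 1 and 2. miR-132, which neurons induce with activity, followed at 0.15, with 1118 CPM, compared with 2643 and 2829 CPM. miR-146a, known from immune cells, lay at 0.26, miR-29c at 0.35 and miR-126-5p, from an endothelial hairpin, at 0.35. These miRNAs were picked on the same ratio on which the cluster was chosen, so their low ratios follow from the rule. miR-146a and miR-126-5p return in the marker lists below with the same counts, which are not separate evidence. The likeness rests on 3 libraries.

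The summed shares of vessel wall, connective tissue and leukocyte markers were, like the cluster, lower in the biological replicate. In vesicle preparations, causes such as fewer cells of a type or less RNA per cell cannot be told apart. All 7 miRNAs of the smooth muscle and fibroblast list were below both technical replicates in the biological one, 3 of them by more than 2-fold, with a median log2 ratio of -0.84, where 59.1% of all 367 miRNAs were below both and 8.99% more than 2-fold lower. Together they took 1.22% of the counts in the biological replicate, against 1.98% and 2.19% in technical replicates 1 and 2, and none was at 0. miR-199a-3p and miR-199c, 2 of the 7, had identical counts, so their reads enter these values more than once. With such counts kept once, all 6 remaining miRNAs were below both technical replicates and 3 were more than 2-fold lower. Their median was then -1.11, and they took 1.02% of the counts in the biological replicate, against 1.68% and 1.89%. miR-143, the most abundant, had 8206 CPM in the biological replicate, compared with 13712 and 15656 CPM, and miR-199a-3p had 1984 CPM, against 2952 and 3048 CPM. The least abundant of the list, miR-145, was close to the count minimum, with 11 counts in the biological replicate, against 14 and 12 counts. Its place below both technical replicates thus rests on few counts. Both endothelial arms, miR-126-3p and miR-126-5p, were below both technical replicates (log2 ratios of -0.67 and -0.89), and took 0.113% of the counts, against 0.182% and 0.189%. In the leukocyte list 5 of 6 passed the count minimum and 4 of these were below both technical replicates, with 1 more than 2-fold lower, beside the same 59.1% and 8.99% of all miRNAs. The list took 0.0123% of the counts, against 0.0281% and 0.0280%, and none was at 0. Its most abundant members, miR-146a and miR-142-5p, had log2 ratios of -1.49 and -0.88. The part of vessel wall, connective tissue and leukocyte cells in the lower level of the cluster was not tested.

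The summed shares of the endocrine, erythrocyte and striated muscle lists were higher in the biological replicate than in either technical replicate, while their members differed in direction. The endocrine and chromaffin miRNAs miR-375 and miR-7 had log2 ratios of 0.17 and -0.20. They took 47.3% of the counts in the biological replicate, against 44.1% and 42.8% in the technical replicates. The erythrocyte list took 0.110%, against 0.0898% and 0.0837%, with miR-486 at 0.35 and miR-451 at -0.38 on the log2 ratio scale. The striated muscle list took 0.0883%, against 0.0676% and 0.0655%, with miR-499 at 0.45 and miR-1 at 0.23. Its other members past the count minimum, miR-133a and miR-133b, had -0.08 and -0.47, and miR-208a and miR-208b had no count in any library.

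**Figure D5:**
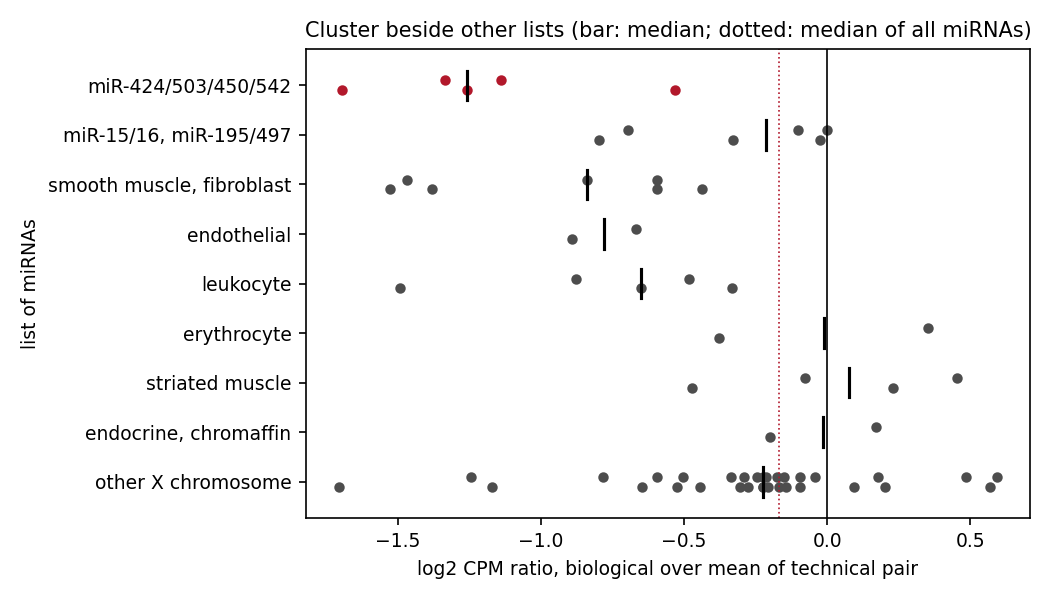
log2 ratio of CPM in the biological replicate over the mean of the technical pair for each miRNA with at least 10 counts in a library, by list, with a bar at the list's median and a dotted line at the median of all miRNAs (-0.17). The cluster's median is -1.26, those of the smooth muscle and fibroblast, endothelial and leukocyte lists are -0.84, -0.78 and -0.65, and those of the miR-15/16 type and other X chromosome lists are -0.21 and -0.22.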

How the data were processed

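Total RNA of purified vesicles (500 ng) went into NEBNext small RNA libraries, per the labels' protocols. The authors deposited raw read counts in 919 rows, one for every pair of mature miRNA and hairpin, with deposited CPM values that equal count over column total. The submitters' processing notes name UMD3.1 and edgeR. Aligner and counting tool: not given in the sources used here. A second table by the authors holds log2 values for 459 rows, tested on the file to be log2(CPM + 0.1) of rows above 1 CPM in at least 2 libraries, and served only as an alternative.

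Each of the 73 mature miRNAs with several rows entered with its most counted row, and CPM were computed from totals over mature miRNAs, so they exceed the deposited CPM. Ratios set the biological library against the mean CPM of the technical pair. Because the technical libraries were taken, from their label, to repeat 1 preparation and the cluster was chosen with this contrast known, no test was run. TMM factors came from edgeR 4.0.16 and median-of-ratios factors from DESeq2 1.42.0 (R 4.3.3), and intervals from scipy 1.17.1. Ratios, intervals and scaling were tested on simulated data that held counting error only, so spread between preparations was not covered. Hairpin names matched RefSeq for 798 of 808 hairpins. The members, lists and naming rules (the 5 nearest miRNAs, the seed list, the 2 most abundant of each marker list) were chosen with earlier results of these data known. The alternatives were other scalings, row sums, the log2 table, a pseudocount of 1 CPM, other count filters and each technical library left out. Keeping identical counts once in the smooth muscle and fibroblast list was chosen after seeing the data.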

Additional observations from a re-analysis of the deposited data

How the results depend on the processing

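The log2 ratio of the cluster, biological replicate over technical pair, was -1.24 and kept its sign in every setting run. It moved beyond its counting interval with TMM scaling (-1.06), with DESeq2 size factors (-1.07) and with miR-375 left out of the library totals (-1.13). It was between -1.26 and -1.22 with either technical library left out, and -1.23, -1.23 and -1.21 with rows summed, after adding 1 CPM and in the log2 table of the authors. Of the members, 4 were more than 2-fold lower in all settings except TMM scaling, DESeq2 size factors and a mean of at least 100 CPM, where 3 were. At 100 CPM only 3 members were compared, and 7 of all 167 miRNAs at that level were more than 2-fold lower. In the main setting it was 33 of all 367 miRNAs (8.99%). For the other settings the share of all miRNAs past 2-fold was not counted, so nothing is read from the number of members there. miR-424-3p ranged from -0.76 without technical replicate 2 to -0.27 without technical replicate 1. With both miR-450a rows summed, miR-450a and not miR-450b led the cluster in every library. No paired analysis was possible because no label pairs the biological library with either technical library. Leaving out the biological replicate leaves no comparison. Depth limits miR-503-3p and miR-542-5p, at 2 counts or fewer in each library.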
